A study of Chlamydomonas reinhardtii with 2 samples.

Results

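Stretches of the Chlamydomonas reinhardtii genome in which no uniquely aligned RNA read began for 10 kb or more were described. They were found by pooling the distinct start positions of both libraries and keeping each space of at least 10000 positions strictly between consecutive starts. In all 546 such gaps were found among 1995678 spaces of any length, 0.0274% of them, and together they took up 12.9 Mb or 11.5% of the 112.3 Mb between the first and the last start. Because the read starts themselves chose the gaps, the number, lengths and emptiness of the gaps are a description and carry no test.

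The single-celled green alga was strain 2137 (culture collection number 1021), kept at 23 °C with constant illumination (50 to 90 µmol photons m-2 s-1). Its medium was Tris-acetate-phosphate (TAP) with a trace element mix revised from ionomic data, and cultures were diluted 100-fold into fresh medium. Poly-A selected RNA was read as single ends of 35 nt in 2 samples of this 1 group, replicate 2 with 5787626 and replicate 1 with 5380216 uniquely aligned reads. The strain tag of replicate 2 reads 2138 while its title reads 2137, and no label tells if separate cultures were sampled, so values are also given for each library alone.

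The nuclear genome of Chlamydomonas is rich in G and C, and its genes lie close together, with introns in most of them. Between and within genes it also holds transposable elements, tandem repeats and families of near-identical gene copies, and its draft assemblies contain stretches of unknown bases. Selection for a poly-A tail keeps mature messenger RNA and leaves out most ribosomal RNA and transcripts that end without such a tail. A stretch of the assembly without transcription, a stretch of repeats where reads cannot align uniquely and a stretch of unknown bases all leave the same absence of starts, and they cannot be told apart in these tables. No assembly of the version used by the authors was analysed here, so no gap is assigned to a gene, a scaffold or a sequence, and none is taken to be silent.

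Most gaps (344, 63.0%) were under 20 kb, and a small number of very long ones supplied much of the empty length. The median gap was 16.5 kb long, the interquartile range 12.6 to 25.9 kb and the 90th percentile 41.2 kb. There were 235 gaps (43.0%) of 10 to 15 kb, which made up 22.3% of the gap length. At the other end 38 gaps were 50 kb or longer, 12 of them 100 kb or longer, and these 12 alone held 12.3% of the gap length. The 130 longest gaps held 50% of it. Lengths near the limit ran on without a break: the members just inside it had 10026, 10069 and 10108 positions, and the spaces just outside it had 9987, 9978 and 9974.

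**Figure D1:**
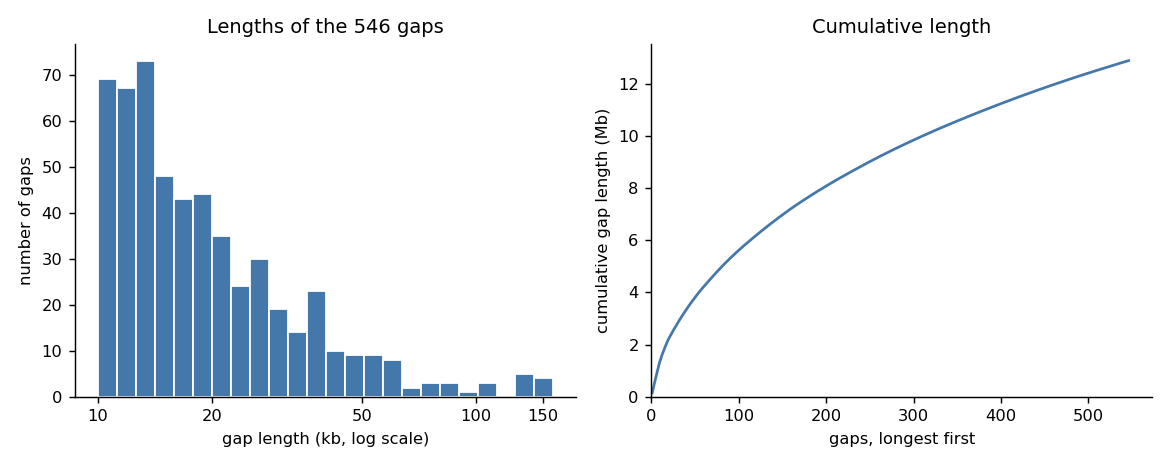
Left, number of gaps by length (kb, log scale); right, cumulative gap length in Mb with the longest gap first. Gap counts fall from the 10 kb limit towards the longest gap of 150.5 kb, and the first 130 gaps reach 50% of the 12.9 Mb.

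The 10 longest gaps ranged from 109.2 to 150.5 kb. The longest held 150499 positions, from 34738687 to 34889185 along the joined scaffolds of assembly version 3.1, the coordinate used throughout. It was followed by gaps of 147.4 kb (107186370 to 107333788), 145.0 kb (81108187 to 81253147) and 144.7 kb (105358802 to 105503523). Next came 138.8 kb at 105675446 to 105814254, 138.4 kb at 109531251 to 109669697 and 136.7 kb at 52223501 to 52360233. The remaining places went to gaps of 135.6 kb (30800446 to 30936008), 128.5 kb (44461370 to 44589902) and 109.2 kb (88535460 to 88644706). If a count of 0 is taken to allow up to 3 reads, the longest gap had a level of at most 0.00178 RPM per kb, where RPM is reads scaled to a total of 1000000. This bound covers counting error only, holds only where reads can align uniquely, and was computed on the libraries that chose the gap.

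The surroundings of these long gaps differed widely. The gap of 136.7 kb lay between the most active neighbours: the 10 kb to its left had 2722 RPM (95% exact Poisson interval 2691 to 2753) and the 10 kb to its right 504 RPM (491 to 517). By library its left side had 2715 RPM in replicate 2 and 2729 RPM in replicate 1. In contrast, the gap of 147.4 kb had 3 reads in the 10 kb to its left and 1 read in the 10 kb to its right. The gap of 138.8 kb had 5 and 8, and that of 109.2 kb had 5 and 6. Both kinds of neighbourhood thus occurred among the 10 longest gaps, and length alone did not separate them.

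Only a pair of lengths occurred more than once. Gaps of 11413 positions lay at 35225769 to 35237181 and at 107088230 to 107099642, and gaps of 24869 positions at 91365400 to 91390268 and at 100719242 to 100744110. The other 542 gaps had a length of their own.

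Each library alone gave a similar picture with more and slightly different gaps, as fewer reads leave more positions without a start. In replicate 2 alone 657 gaps were found (15.3 Mb, longest 160.9 kb) and in replicate 1 alone 650 (15.4 Mb, longest 154.9 kb). The stretches empty in both libraries amounted to 13.3 Mb, which is 86.9% of the gap length of replicate 2 and 86.3% of that of replicate 1. Of the gaps of replicate 2, 85.7% touched one of replicate 1, and of those of replicate 1, 85.2% touched one of replicate 2.

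The library that had not been used to find a gap measured how empty it was. In gaps found in replicate 1 alone, replicate 2 had 1572 reads over 15.4 Mb, or 0.102 reads per kb (95% exact Poisson interval 0.0973 to 0.107), against 51.5 reads per kb over the whole span. In gaps found in replicate 2 alone, replicate 1 had 1345 reads, or 0.0881 reads per kb (0.0835 to 0.0930), against 47.9 over the whole span. These gaps were therefore not wholly without reads in the other library, but their level was 504 times below the mean of the whole span for replicate 2 and 544 times for replicate 1. That mean lies far above a typical stretch. In the summed libraries the median 1 kb tile had 0.448 RPM, where 1 read is 0.0895 RPM, and 74.4% of 1 kb tiles had a read. Against such a tile the gaps were lower by much less. No position and length inside held more than 3 reads, and the median gap had 2 reads of the held-out library in both directions. Among the gaps of replicate 1, 129 (19.8%) had none in replicate 2, and among the gaps of replicate 2, 176 (26.8%) had none in replicate 1.

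Most of these held-out reads lay near the ends of the gaps. Of the held-out positions and lengths in the gaps of replicate 1, 59.5% were within 1 kb of an end, a zone that made up 8.46% of the gap length. For the gaps of replicate 2 the share was 56.7%, in a zone of 8.61%. More than 1 kb from both ends, the rate fell with gap length: 0.0811 reads per kb in gaps of 10 to 20 kb, 0.0344 in gaps of 20 to 50 kb and 0.0137 (0.0103 to 0.0179) in gaps of at least 50 kb, for gaps of replicate 1 and reads of replicate 2. For gaps of replicate 2 and reads of replicate 1 the rates were 0.0771, 0.0321 and 0.00763 (0.00507 to 0.0110). In both directions the intervals of the 3 length classes did not overlap. They cover counting error only. A longer space stays empty in 1 library only where reads are rarer, so part of this fall is built into the length classes.

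**Figure D2:**
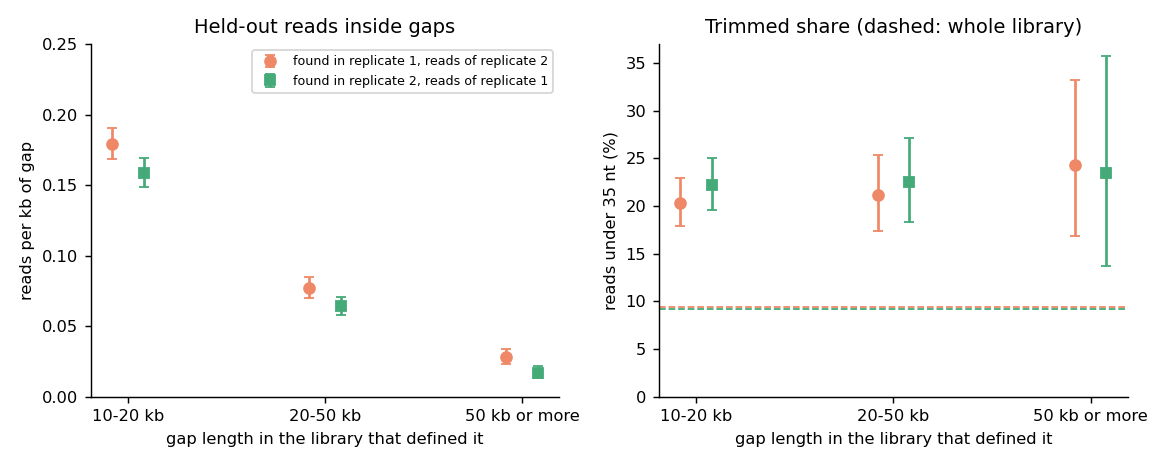
Reads of the library not used to find the gap, by gap length in the library that was used: left, reads per kb of gap with 95% exact Poisson intervals; right, percent of these reads under 35 nt with 95% exact Clopper-Pearson intervals and the whole-library share dashed. Rates fell from 0.179 and 0.159 reads per kb in gaps of 10 to 20 kb to 0.0280 and 0.0170 in those of at least 50 kb, while the shares under 35 nt stayed between 20.3% and 24.3%, above the whole-library shares of 9.46% and 9.23%.

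Held-out reads inside gaps were more often short alignments than the reads of the whole library. Reads that did not match over their full length with up to 2 mismatches had been trimmed by the authors until they matched perfectly, down to 21 nt, and alignments under 35 nt are named trimmed here. In the gaps of replicate 1, 20.9% of the reads of replicate 2 were trimmed (95% exact Clopper-Pearson interval 18.9 to 23.0), against 9.46% of the whole library. In the gaps of replicate 2 the share for replicate 1 was 22.4% (20.2 to 24.7), against 9.23% of the whole library. The comparison depends on the reference. Over the whole library, 18.1% of the entries (position and length) of replicate 2 and 17.6% of those of replicate 1 that hold a single read were trimmed. An entry with a single read can lie at a deep position. In the summed libraries 9.78% of single-read positions were trimmed. In 10 kb tiles of the span with under 10 reads, 24.8% of reads were trimmed, above the held-out shares. Those tiles include ones that hold gap positions, so they are not a separate reference. With 1 library on each side no test over samples was possible.

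Gaps were unevenly spread along the global coordinate. The median distance from a gap to the next was 64.6 kb, but 25% of the 545 distances were 10.8 kb or shorter and 10% were 538 kb or longer. The longest distance without a gap was 2.02 Mb, from 57966959 to 59991581. In total 207 gaps (37.9%) had another gap fewer than 10000 positions away. These formed 74 runs, of which 42 held 2 gaps, 18 held 3, 5 held 4, 5 held 5 and 4 held 6, while the other 339 gaps stood alone. The share of gaps with such a neighbour was 31.1% at 10 to 15 kb, 46.8% at 15 to 20 kb, 37.4% at 20 to 30 kb, 40% at 30 to 50 kb, 42.3% at 50 to 100 kb and 75% (9 of 12) at 100 kb or more, with no steady rise between the shortest and the longest class.

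Per 1 Mb the empty length ranged widely. Of 112 bins of 1 Mb, 7 had no gap, the median bin had 77.8 kb of gap in 4 gaps, and 25% of bins had more than 163 kb. The 10 bins with the most gap length held 29.8% of the total. The bin from 88 to 89 Mb came first with 18 gaps and 536 kb, 53.6% of its positions, and had 2204 RPM. The bin from 105 to 106 Mb had 481 kb in 11 gaps and 1187 RPM, and that from 110 to 111 Mb had 468 kb in 20 gaps and 3803 RPM. Across the bins, those with more gap length had fewer reads (Spearman rho -0.41 over 112 bins, which share libraries and are not independent), and gap positions can hold no starts, so part of this relation is built in. The rho of gap length with the trimmed share of the bin was 0.0464.

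Over segments of 10 Mb the share of positions in gaps was highest at the end of the coordinate, although single bins of 1 Mb elsewhere, such as 88 to 89 Mb, held more. In segments of 10 Mb from 0 to 80 Mb, 6.92 to 11.6% of positions lay in gaps. From 80 to 90 Mb 18.0% did, from 90 to 100 Mb 8.07%, from 100 to 110 Mb 25.7%, and from 110 Mb to the last start at 112.3 Mb 39.4%. The last segment, which is shorter than the others, had 4024 RPM per Mb, against 6068 to 11594 RPM per Mb in the other segments. Where scaffolds begin and end on this coordinate was not analysed here.

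**Figure D3:**
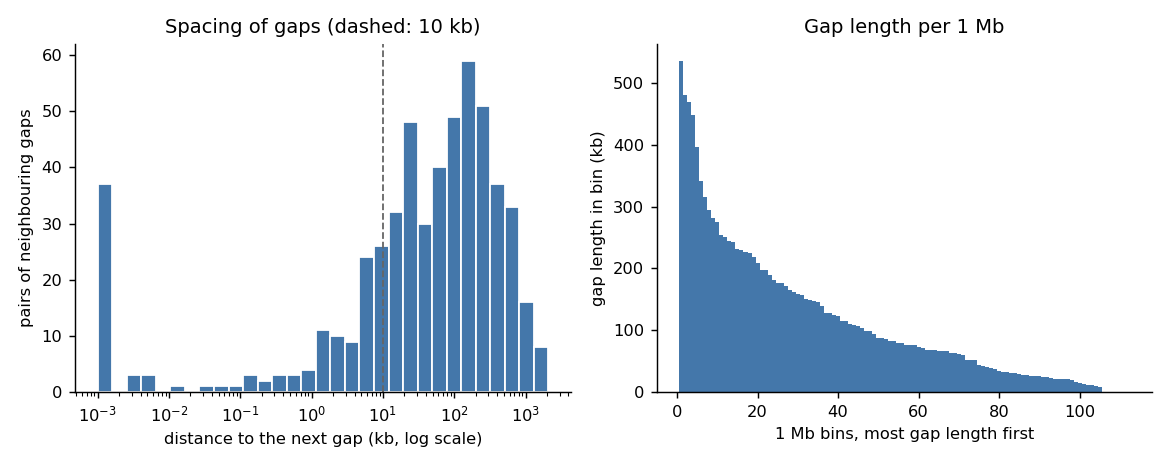
Left, number of neighbouring pairs of gaps by the distance between them (kb, log scale, dashed line at 10 kb); right, gap length in each of 112 bins of 1 Mb, most first. The left-most bar holds the 37 pairs separated by a single start position, and the highest bin on the right holds 536 kb.

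The run covering the most ground was nearly free of reads over 316 kb. It lay at 80937461 to 81253147 and held 5 gaps, of 87.1, 19.02, 20.5, 36.2 and 145.0 kb, which took up 97.5% of it. Only 12 reads in the summed libraries (1.07 RPM) began inside it, 2 of them trimmed. The next was a run of 6 gaps over 268 kb at 105325769 to 105593807, with 1564 reads, 98 of them trimmed. There 91.0% of positions lay in gaps. The other runs of 6 gaps were at 110810221 to 110968713 (158 kb, 70 reads), 111094507 to 111257571 (163 kb, 176 reads) and 111283176 to 111378952 (95.8 kb, 177 reads).

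Neighbouring gaps were often parted by very few reads. Between 61 pairs of gaps lay an island of read starts no more than 1 kb long. At 37 of these places it was a single position, and at 35 of them a single read was all that parted the gaps. Of these 35 reads 7 were trimmed. The read at 107333789, present in replicate 1 alone, parted gaps of 147.4 and 13.5 kb, and without it these would be 1 stretch of 160.9 kb. Of the 26 islands with more than 1 read, 20 had reads in both libraries. Over all 61 islands 39 of 233 reads (16.7%, exact interval 12.2 to 22.2) were trimmed.

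A few islands held more reads. The most abundant, from 54098094 to 54098881, had 48 reads at 45 starts over 788 nt, 23 in replicate 2 and 25 in replicate 1, between gaps of 16.8 and 11.9 kb. The next had 29 reads over 483 nt at 28531579 to 28532061 (17 in replicate 2, 12 in replicate 1) and 19 reads over 698 nt at 44723226 to 44723923 (13 and 6). At 102519388 a single position had 12 reads, 6 in each library and all of full length, with 89.9 kb of gap on one side and 13.3 kb on the other. The fifth island had 11 reads at 67308610 to 67308931. Islands spread over many bases and this pile on a single base were thus both found between gaps.

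Read levels beside the gaps were lower than over the genome as a whole. The 10 kb stretches directly beside the gaps, named flanks here, had a median of 6.27 RPM (95% interval of the median 5.01 to 7.34, 1092 flanks), against 15.1 RPM (14.5 to 15.6) in all 11230 tiles of 10 kb. Left and right flanks had 6.13 and 6.27 RPM. By library the flank median was 6.05 RPM in replicate 2 and 6.13 RPM in replicate 1, against tile medians of 15.03 and 15.06 RPM. Fewer than 10 reads were found in 296 flanks (27.1%), against 13.4% of tiles, even though each flank holds at least the read at its edge and 6.68% of tiles held none. At least 1000 reads were found in 86 flanks (7.88%), against 12.8% of tiles.

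Part of this low level goes with the clustering of gaps. In 266 flanks some positions belonged to another gap, and these had a median of 0.358 RPM, with 70.7% under 10 reads. The 826 flanks free of other gaps had a median of 10.9 RPM (9.40 to 13.1), against 19.3 RPM (18.6 to 20.1) in the 9482 tiles free of gap positions. Neighbouring gaps can share a flank, so flanks are not independent of each other. Since gaps were chosen by the absence of starts on the same libraries, a low level beside them is described and not tested.

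The reduced level reached far beyond the edges. In the tenth kb from the edge 59.8% of 1 kb steps had a read start, and this was 59.1% in the twentieth, 63.4% in the fiftieth and 65.8% in the hundredth, against 74.4% of all 1 kb tiles. Steps that touched another gap made up 24.4% of the steps in the tenth kb and 21.2% in the hundredth, against 11.9% of all tiles. Among steps free of gaps the shares were 77.6, 76.8, 80.7 and 81.6%, against 83.5% of gap-free tiles. Over all steps there was no slope from the second to the tenth kb, where 56.0 to 59.8% had a read. Steps touching another gap are included there, and made up 11.2% in the first kb and 24.4% in the tenth. Gap-free steps were not measured at each kb of the flank. The median level rose with flank width, from 0.313 RPM per kb in flanks of 2 kb to 0.627 in 10 kb and 1.01 in 20 kb.

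**Figure D4:**
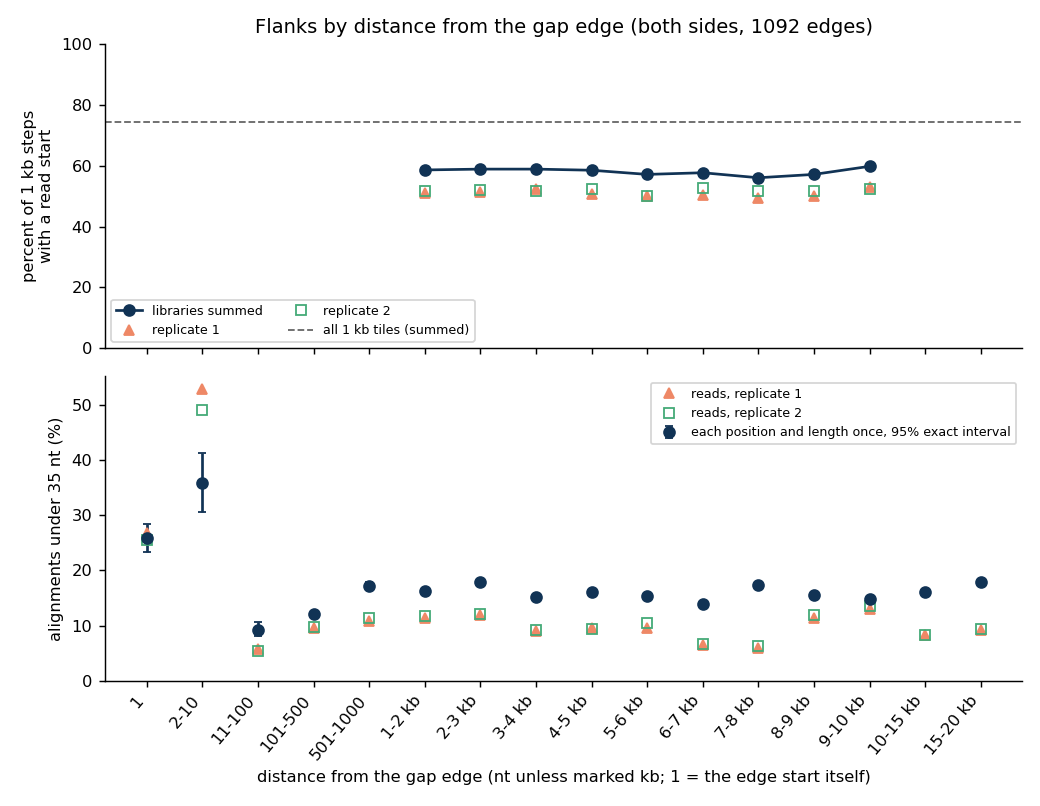
Top, percent of 1 kb steps with a read start by distance from the gap edge, with all 1 kb tiles dashed (74.4%); bottom, percent of alignments under 35 nt by distance, counted by position and length with 95% exact intervals and by reads in each library. Steps from the second to the tenth kb stay between 56.0 and 59.8% in the summed libraries, and the trimmed share is highest within 10 nt of the edge.

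Active regions were found beside some gaps. A 1 kb step with at least 100 reads lay directly at 83 of 1092 edges (7.60%), against 9.30% of all 1 kb tiles with as many reads, and within 10 kb of 320 edges (29.3%). The median edge had its first such step 22 kb away. Both flanks had at least 100 reads at 116 gaps (21.2%), 1 of them at 241 (44.1%) and neither at 189 (34.6%). Of all flanks 35.4% had 100 to under 1000 reads and 7.88% had 1000 or more, against 49.4 and 12.8% of all 10 kb tiles. Pairs of tiles and distances from places other than gap edges were not measured, so these counts are not set against the genome.

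Where neither flank held part of another gap, the levels of the sides had little to do with each other. Over 339 gaps whose flanks held no part of another gap, left and right log2 RPM were nearly unrelated, with r = 0.0575 (Pearson) and rho = 0.0439 (Spearman, across gaps and given as a description). Over all 546 gaps, with flanks holding part of another gap included, the sides differed at least 10 times in reads at 189 (34.6%) and at least 100 times at 58 (10.6%). This was not measured for pairs of ordinary tiles. Both flanks had under 10 reads at 77 of the 546 gaps (14.1%), 1 of them at 142 (26.0%) and neither at 327 (59.9%), with 27.1% of all flanks under 10 reads. The low correlation thus holds for the 339 gaps only, and how far low sides go together over all gaps was not tested. The rho of gap length with summed flank reads was -0.156 over the 339 gaps whose flanks held no part of another gap. Over all flanks the median was 9.58 RPM beside gaps of 10 to 15 kb, 3.72 RPM at 15 to 20 kb, 5.10 RPM at 20 to 30 kb, 3.0 RPM at 30 to 50 kb, 4.92 RPM at 50 to 100 kb and 8.78 RPM beside the 12 gaps of at least 100 kb. Under 10 reads were found in 41.7% of the flanks of these 12 gaps and in 19.6% of those of gaps of 10 to 15 kb. Medians were thus lower in every class above 15 kb than in the shortest, without a steady order among them. Flank levels repeated closely between the libraries. In the 473 flanks with at least 100 reads, log2 RPM of replicate 2 and replicate 1 had a Pearson r of 0.994, and the ratio of replicate 2 to replicate 1 had a median of 0.994 and lay between 0.592 and 1.60.

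**Figure D5:**
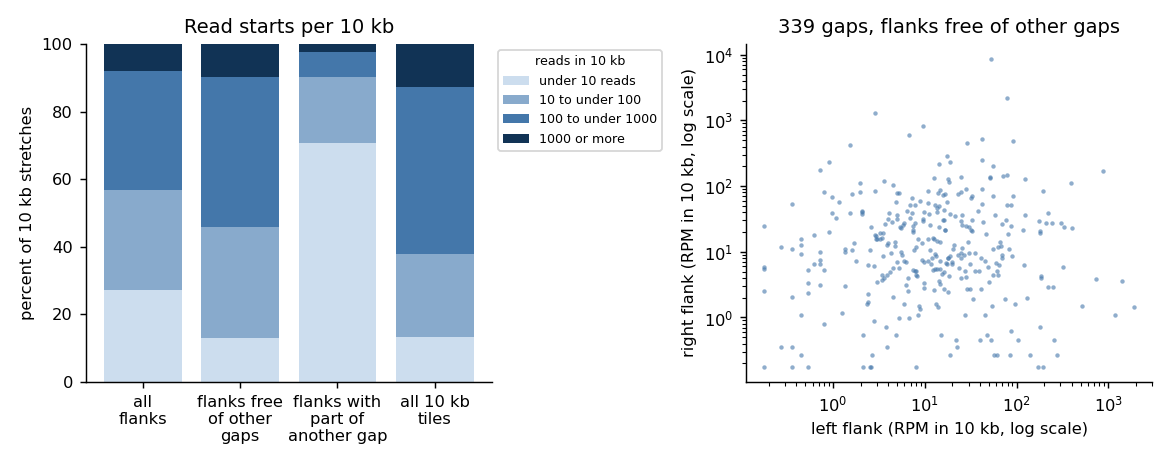
Left, percent of 10 kb stretches by number of reads, for flanks and for all 10 kb tiles; right, level of the right against the left flank (RPM in 10 kb, log scales) of the 339 gaps whose flanks hold no part of another gap. Flanks under 10 reads make up 27.1% of all flanks and 13.4% of tiles, and the points on the right show no line (Spearman rho 0.0439).

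The gaps with the most abundant flanks bordered strongly transcribed regions. The 10 kb to the right of the gap at 1812588 to 1840688 (28.1 kb) had 8511 RPM, 8483 in replicate 2 and 8542 in replicate 1, and 50% of these reads began within 7549 nt of the edge. Its left flank had 52.9 RPM. Next was the left side of the gap at 52223501 described above. The right flank of the gap at 65677713 to 65688847 had 2223 RPM (2257 in replicate 2, 2187 in replicate 1), much of it close by, with 50% of its reads within 623 nt. The left flank of the gap at 77614371 to 77625655 had 1904 RPM while its right flank had 1.43 RPM. The left flank of the gap at 35320349 to 35330640 had 1398 RPM, against 3.58 RPM on its right. In these last gaps, of 11.3 and 10.3 kb, the sides thus differed strongly in level.

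Trimmed alignments were about as frequent beside gaps as elsewhere once all reads were pooled. The share was 9.61% in flanks (95% exact interval 9.53 to 9.68, 576620 reads) and 9.35% in all tiles (9.33 to 9.37). By library it was 9.75% in flanks of replicate 2, against 9.46% in its tiles, and 9.45% in flanks of replicate 1, against 9.23%. Right flanks had 10.2% and left flanks 8.89%. The single most abundant flank, on the right, supplied 16.5% of all flank reads. Its own share was 8.95%, so it did not raise that of the right flanks. Other abundant flanks had higher shares, 16.6% of 24828 reads right of the gap at 65677713 and 21.8% of 14455 reads right of that at 26464708. On the left the flank at 77614371 had 15.9% of 21261 reads and that at 52223501 4.98% of 30398. Over flanks with at least 50 reads the medians were close, 9.24% on the right and 9.13% on the left. Among stretches with at least 50 reads the median share was 9.21% over 601 flanks, against 8.70% over 8247 tiles, with interquartile ranges of 6.61 to 12.4% and 6.47 to 12.02%.

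The share of trimmed alignments fell with the level of a stretch up to 1000 reads, in flanks and tiles alike. Flanks with under 10 reads had 23.2% trimmed reads (exact interval 20.7 to 25.8), against 24.8% (23.3 to 26.4) in tiles of that level. Flanks with 10 to under 50 reads had 16.0%, against 17.0% in such tiles. With 50 to under 200 reads it was 12.4% (12.1 to 12.8) in flanks, against 11.3% (11.2 to 11.4) in tiles, and with 200 to under 1000 reads 9.18%, against 8.90%. With 1000 reads or more it was 9.40%, against 9.31%, both slightly above the class before. At matched level the difference between flanks and tiles thus lay between -1.58 and 1.11 points and changed its sign between levels. The tiles cover the whole span, flanks and gaps included. Of tiles with reads, 754 had under 10, but only 356 tiles without gap positions did. Likeness at low level is therefore partly built in. The intervals cover counting error only, while neighbouring reads share their source.

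Single flanks varied more than this. Among the 173 flanks with at least 500 reads, the 10th and 90th percentiles were 5.03 and 12.5%, against 4.67 and 12.9% in the 2697 tiles with as many reads. The highest share was 21.8% (21.1 to 22.5) to the right of the gap at 26464708 to 26484846, with 21.8% in replicate 2 and 21.9% in replicate 1 and a level of 1294 RPM. It was followed by 21.4% to the left of the gap at 1317422 to 1329759, 19.8% to the left of that at 106683719, 19.3% to the left of that at 108366828 and 17.3% to the right of that at 79119111. The lowest share was 1.96% (1.48 to 2.53), in a region of 2862 reads that was the right flank of the gap at 110168671 to 110197335 and, in full, the left flank of that at 110205069 to 110239012. It was 1.95% in replicate 2 and 1.96% in replicate 1. The left flank of the gap at 52115992 to 52152588 had 1.97%, and the right flanks of the gaps at 49212301 and 7089206 had 3.20 and 3.31%.

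The reads that stood directly at a gap were mostly alone and often trimmed. At 497 of 546 left edges (91.0%) and 512 of 546 right edges (93.8%) the edge position held a single read. Over the whole series 2000372 of 2998295 distinct starts did. The next start away from the gap was a median of 204 nt further on, whereas consecutive starts over the whole series lay a median of 3 nt apart, and at 359 edges (32.9%) it was more than 1 kb away. Of the reads at left edges 29.4% (exact interval 25.8 to 33.1) were trimmed, and of those at right edges 22.7% (19.4 to 26.3), against 9.35% of all reads. At left edges the share was 28.2% in replicate 2 and 30.8% in replicate 1, and at right edges 22.5 and 22.9%. Among edges with a single read it was 23.3% on the left and 22.1% on the right, against 9.78% of all single-read positions. Of the trimmed edge reads 51.4% on the left and 55.9% on the right were only 21 to 23 nt long, against 29.2% of all trimmed reads.

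Shorter spaces between starts had similar edges, so these shares are not particular to long gaps. A single read stood at 96.1% of left and 95.4% of right edges of spaces of 1000 to under 2000 positions. For spaces of 5000 to under 10000 positions these shares were 95.3 and 94.0%. At the left edges of spaces of 1000 to under 2000 positions 24.1% of reads were trimmed, at those of 2000 to under 5000 positions 25.1% and at those of 5000 to under 10000 positions 28.9%. On the right these classes had 23.0, 25.1 and 21.7%. Among spaces under 10000 positions the highest shares belonged to those of 100 to under 1000 positions, with 33.2% on the left and 29.0% on the right, whereas spaces of 1 to under 10 positions had 8.18 and 8.20%. Over gaps of 10 to 20 kb, 20 to 50 kb and at least 50 kb the left shares were 27.0, 34.4 and 29.3%, and the intervals of these classes overlapped.

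The trimmed share changed within a short distance of the edge. Of reads starting 2 to 10 nt from the edge 51.0% were trimmed, and this fell to 34.0% when the gap with the deepest pile of trimmed reads was left out. At 11 to 100 nt the share was 5.55%, below that of the series, and at over 100 and up to 500 nt 9.64%. With each position and length counted once the shares were 25.8% at the edge, 35.9% at 2 to 10 nt, 9.27% at 11 to 100 nt and 12.05% at over 100 and up to 500 nt, against 16.7% over the series. Further out they lay between 13.9 and 17.8% for each step up to 20 kb.

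At a few edges trimmed reads of several lengths stopped together at the same base. Such piles, with at least 3 alignment lengths sharing their stop beside the gap, were found at 6 of 1092 edges (0.549%), against 0.403% of the edges of spaces of 5000 to under 10000 positions and 0.632% of those of 1000 to under 2000 positions. They were listed after their values were seen. The deepest was at the left of the gap at 111114696 to 111127065 (12.4 kb). There 114 reads of 5 lengths, 56 in replicate 2 and 58 in replicate 1, ended at base 111114714, having begun between 111114688 and 111114692. The whole cluster held 159 reads (14.2 RPM), of which 158 were trimmed to 21 to 30 nt and 1 was of full length. Its extent of 192 nt came from the full-length read at 111114504. The trimmed reads began within 100 nt of the gap, most of them within 10 nt. A gap of 19.02 kb lay on the other side of the cluster, apart from a lone read at 111113526. It was thus a cluster seen in both libraries, made almost wholly of trimmed reads and lying between gaps. Since copies cannot be recognised, its depth does not count independent molecules, and whether the shortened reads belong there was not tested.

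The second pile lay at the right of the gap at 109953379 to 109965457, where 37 reads of 9 lengths began at base 109965462, 15 in replicate 2 and 22 in replicate 1. A pile of 8 reads of 4 lengths, 4 in each library, ended at 20336027 beside a gap of 26.3 kb. The gap of 128.5 kb at 44461370, among the 10 longest, had 6 reads of 5 lengths ending at 44461391, 3 in each library. The remaining piles held 6 and 3 reads. The other 1086 edges had no such pile.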

How the data were processed

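The deposited tables hold raw counts of uniquely aligned reads per position and alignment length, per the deposited readme. Per that readme the authors used SOAP, whose version it does not give, on the unmasked 3.1 assembly of 1266 scaffolds with up to 2 mismatches. Reads that failed were shortened from an end, to 21 nt at the least, until a perfect match was found. The readme calls the recorded position the most 5′ one and gives no strand. It was read as the leftmost base, and gap edges would shift by at most 34 nt otherwise.

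Distinct starts of both libraries were pooled, and gaps, flanks, tiles and held-out reads were counted in Python 3.11.15 (numpy 2.4.6, scipy 1.17.1). Levels are RPM of the summed 11167842 reads. edgeR 4.0.16 and DESeq2 1.42.0 supplied scaling factors for an alternative only. Gap calling and flank counts were checked on simulated data. Intervals cover counting error only, since PCR copies cannot be recognised without molecular identifiers.

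The gap rule, lists and measures were chosen with earlier results of these data known. Named were the 10 longest gaps, those beside the length limit, repeated lengths, the 3 bins with most gap length, the 5 most abundant flanks, the 5 highest and 5 lowest trimmed shares among flanks of at least 500 reads, the longest run and the 5 most abundant islands. Alternatives covered gap length, kind of start, libraries, flank width, scaling and counting. With 1 group no test over samples was possible.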

Additional observations from a re-analysis of the deposited data

How the results depend on the processing

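The 546 gaps became 1414 at a minimum of 5000 positions, 202 at 20000 and 2034 when a start needed at least 2 reads, and their total of 12.9 Mb became 8.12 Mb at 20000 positions and 41.6 Mb with at least 2 reads. Fewer starts are part of that last setting. Full-length starts alone (603 gaps), uncovered bases (545) and leaving out 1 library (650 to 657 gaps, 15.3 to 15.4 Mb) changed either value by under 1.5 times. The 37.9% of gaps with a neighbour within 10 kb moved to 49.9% at 5000 positions, 19.8% at 20000, 53.9% with at least 2 reads, 29.9% for a limit of 5 kb and 47.4% for 20 kb. It was 38.1 to 38.5% with 1 library left out. Joining gaps across islands of 1 read gave 31.3%, and across up to 10 reads 15.9%, an alternative chosen after seeing the data. Joining removes close pairs by its construction, so this fall shows only that many close gaps were parted by few reads. It does not tell how far the empty length itself is clustered.

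The median flank level of 0.627 RPM per kb was 0.313 in flanks of 2 kb, 1.01 in flanks of 20 kb, 1.28 in flanks free of other gaps and flanks, 0.434 at gaps of at least 20000 positions, 1.87 with each position and length counted once and 1.36 in flanks of at least 10 reads. The scaling changed it to 0.624 at either setting, and single libraries gave 0.605 to 0.613. The trimmed share in flanks of 9.61% was 11.1% in flanks of 2 kb, 9.19% in 20 kb, 9.71% in free flanks, 9.18% at gaps of at least 20000 positions, 15.8% with each position and length counted once and 9.21% as a median over flanks. Single libraries gave 9.45 to 9.75%. Without the most abundant flank it was 9.73%, an alternative also chosen after seeing the data. Where values moved without a stated reason the cause was not tested. Depth limits the gaps themselves, since each library alone gave over 100 more. No paired analysis was possible because both samples belong to the same group.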
